A study of Mus musculus with 16 samples.

Results

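The 9 genes Cyp3a11, Cyp3a13, Cyp3a25, Cyp2b10, Cyp2c65, Cyp2c66, Cyp2d26, Cyp2j6 and Cyp4f14 encode cytochrome P450 enzymes that act on drugs and other foreign compounds or on fatty acids. They were taken by name from 3 RNA-seq count tables that list 52636, 54532 and 52636 genes, in each of which all 9 were found beside 90 other Cyp genes. They were chosen by their knockout against wild-type values in these same tables, so their differences between genotypes are given below as a description. Where counts of members called are printed, they stand beside the share of all genes called and support nothing. All 9 passed the filter on low counts in all 3 tables.

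Deletion of Cul4b, an X-linked gene for the scaffold subunit of a cullin-RING ubiquitin ligase, was studied in C57BL/6 mouse small intestine. Crypts of mice that lost Cul4b in the intestinal epithelium (pVillin-Cre; Cul4b fn/Y, called KO-IEC) were compared with crypts of Cul4b fn/Y mice without Cre (WT), 4 libraries each. Organoids grown from crypts in Matrigel were compared in 2 further experiments with 2 libraries a group, KO-IEC against their WT, and organoids with inducible deletion (CAG-CreERT2; Cul4b fn/Y, called KO-CAG) against theirs. The villin promoter drives Cre throughout the gut epithelium, whereas the CAG promoter is active in nearly all cells and its CreERT2 needs tamoxifen or 4-OHT, which was used at 10 µM in organoids. Whether the WT organoids of the inducible experiment carried CreERT2 or received 4-OHT was not given in the sources used here, so deletion of Cul4b, CreERT2 and the drug cannot be told apart in that comparison. Most mice of the study were 8 to 16 weeks old. The study's methods describe the libraries of a group as biological replicates, though the labels do not name the animal or culture behind each.

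Library totals ranged from 7348191 to 16881395 counts, and values are given as CPM, counts scaled to a common library total, after TMM normalisation within each experiment. Cul4b itself was at 31.7, 33.2, 38.3 and 32.3 CPM in the WT and 1.69, 0.993, 0.848 and 2.21 CPM in the KO libraries of the crypts, at 83.2 and 73.2 CPM in the WT and 1.69 and 1.76 CPM in the KO libraries of the KO-IEC organoid experiment and at 72.9 and 70.1 CPM in the WT and 3.34 and 5.19 CPM in the KO libraries of the KO-CAG experiment, so every library matched its label. Over all genes, the quasi-likelihood test of edgeR called 577 higher and 357 lower of 13427 tested in KO-IEC crypts, where a call is a Benjamini-Hochberg adjusted p under 0.05. With library size alone in place of TMM the split was 324 higher of 635 called. The organoid fits called only Cul4b of 13938 genes in the KO-IEC experiment, and 2455 genes higher and 1823 lower of 13598 in the KO-CAG experiment. Mitochondrial rRNA differed between crypt libraries, with WT replicate 1 and KO replicates 1, 2 and 3 at 18.6 to 27.6 CPM, WT replicate 4 and KO replicate 4 at 833 and 1107 CPM, and WT replicates 2 and 3 at 2740.4 and 2737 CPM.

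P450 enzymes are heme proteins of the endoplasmic reticulum that insert an oxygen atom into their substrates, with electrons passed on from NADPH by the reductase Por. In the small intestine they are most abundant in the absorptive enterocytes of the villus, where they meet drugs and food compounds before the liver does. Genes of the Cyp2b, Cyp2c and Cyp3a subfamilies are known targets of the nuclear receptors PXR (Nr1i2) and CAR (Nr1i3), which bind foreign compounds and act with a retinoid X receptor. Cyp3a11 is the mouse enzyme most often compared with the main drug-oxidising CYP3A enzyme of humans, Cyp2b10 is the standard reporter gene for CAR activation, and Cyp4f14 hydroxylates long-chain fatty acids and eicosanoids at their far end.

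The start regions of the genes are shown because Cyp2c65 and Cyp2c66, which differed least in KO-CAG organoids, are neighbours, and because those of Cyp3a11, Cyp3a25 and Cyp2d26 hold the other motif matches. All 9 members were matched by symbol to RefSeq windows of build GRCm38.p6 that span 250 bases before to 50 after the gene start. The stretches printed lie upstream of the RefSeq start and of the gene start in each of the 3 count tables, and run 5′ to 3′ on the strand of the gene at chr19:39060826-39061005 (plus strand), chr19:39113718-39113897 (plus strand), chr5:145879965-145880104 (minus strand), chr5:146009619-146009798 (minus strand) and chr15:82794295-82794474 (minus strand). Capitals mark matches to the 5 motifs spelled out after the sequences, which were searched on both strands of each window.
Cyp2c65: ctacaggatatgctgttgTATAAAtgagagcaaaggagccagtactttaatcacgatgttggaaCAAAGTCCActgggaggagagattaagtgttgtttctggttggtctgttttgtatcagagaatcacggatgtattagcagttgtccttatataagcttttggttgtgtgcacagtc
Cyp2c66: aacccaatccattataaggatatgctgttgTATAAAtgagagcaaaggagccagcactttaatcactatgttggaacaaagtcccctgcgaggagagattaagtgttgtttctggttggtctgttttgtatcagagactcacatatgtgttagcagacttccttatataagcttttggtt
Cyp3a11: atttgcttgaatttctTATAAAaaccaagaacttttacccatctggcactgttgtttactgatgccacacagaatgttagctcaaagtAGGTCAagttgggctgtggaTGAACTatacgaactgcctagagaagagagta
Cyp3a25: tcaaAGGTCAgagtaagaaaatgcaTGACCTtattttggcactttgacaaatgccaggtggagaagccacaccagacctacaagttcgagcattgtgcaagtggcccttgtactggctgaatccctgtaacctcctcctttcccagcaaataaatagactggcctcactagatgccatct
Cyp2d26: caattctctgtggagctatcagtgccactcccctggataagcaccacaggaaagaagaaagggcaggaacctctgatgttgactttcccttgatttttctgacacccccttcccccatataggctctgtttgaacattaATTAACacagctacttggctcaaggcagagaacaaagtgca

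TATAAA, the letters of the TATA box, was found in the windows of Cyp3a11, Cyp2c65, Cyp2c66 and Cyp2d26, which is 4 of 9 members, and in 14.2% of all 27025 windows. Counted from the RefSeq start, the matches begin at -234 in Cyp3a11, -162 in Cyp2c65 and -150 in Cyp2c66. In Cyp2d26 the match begins at -31 and lies on the opposite strand. Only the exact letters TATAAA were searched, so the letters tatataag nearer the end of the printed Cyp2c65 and Cyp2c66 stretches are not marked. Whether any of these letters act as a TATA box was not tested. The nuclear receptor core AGGTCA was found in those of Cyp3a11 and Cyp3a25, 2 of 9 members against 16% of all windows, and the Cyp3a25 window holds it on both strands. AGTTCA, a core of drug-response elements, was found in that of Cyp3a11 alone and in 14% of all windows. CAAAGTCCA, an element bound by HNF4 receptors, was found in those of Cyp3a11 and Cyp2c65 and in 0.474% of all windows. The fifth, GTTAAT, a part of the HNF1 element, was found in that of Cyp2d26 alone and in 7.22% of all windows. The CAAAGTCCA match of Cyp3a11 and the TATAAA match of Cyp2d26 lie between the printed stretch and the RefSeq start and are therefore not shown. Aligned with a shift of 12 bases, the Cyp2c65 and Cyp2c66 windows were identical at 198 of 288 bases, and their TATAAA letters fall on each other in this alignment. A match of letters is a description of these windows and not a bound site.

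In build GRCm38, whose GENCODE M21 annotation has 7 or 8 of the 9 members at exactly the positions of each table, Cyp3a11 (chromosome 5, 145854426 to 145879964) and Cyp3a25 (145977194 to 146009618) lie 97229 bases apart on the minus strand, and Cyp3a13 (137892932 to 137921619) lies apart from them on the same chromosome. Cyp2c65 (chromosome 19, 39061015 to 39093944) and Cyp2c66 (39113898 to 39187072) lie 19953 bases apart on the plus strand. Because a read that fits 2 genes may be split or lost in counting, transcripts were compared by 50-base words: 26.8% of those of Cyp3a25 occur in other genes (mostly Cyp3a59), as do 20.6% of those of Cyp2c65 and 19.5% of those of Cyp2c66 (each mostly in the other), 9.49% of those of Cyp2d26, 8.70% of those of Cyp2b10, 6.73% of those of Cyp3a11, 2.39% of those of Cyp4f14 and 0.422% of those of Cyp2j6. The values of Cyp3a25, Cyp2c65 and Cyp2c66 are therefore uncertain to the extent that reads were shared. No word of Cyp3a13 was shared, but it alone of the 9 overlaps another listed gene, Gm15502 on the same strand, which held at most 513, 152 and 297 counts in a library of the crypts, KO-IEC and KO-CAG organoids, where Cyp3a13 held at least 672, 2270 and 1099.

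In the crypts the mean of each of the 9 genes was higher in KO-IEC than in WT, with log2 fold changes from 0.65 (Cyp2j6) to 2.39 (Cyp3a11) and a median of 1.62. The median over all 13427 genes tested was -0.01. The genes varied widely within each genotype, and Cyp2b10 alone did not overlap between genotypes. Single libraries moved these values: the median was 2.33 without WT replicate 4 and 1.28 without KO replicate 3, and Cyp3a11 went from 3.85 to 1.63 and Cyp2c66 from 2.33 to 0.88 between these settings. All 9 differences were positive whichever library was left out.

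The Cyp3a subfamily oxidises a broad range of drugs and steroids. Cyp3a11 was at 9.13, 7.16, 3.04 and 49.7 CPM in the WT and 18.1, 67.2, 204 and 75.0 CPM in the KO libraries, a log2 fold change of 2.39 (SE 0.90). Its WT replicate 4 was above KO replicate 1, so the groups overlapped. Cyp3a13, the member of this subfamily known chiefly from intestine, was at 117, 81.7, 53.7 and 219 CPM in the WT and 194, 317, 467 and 370.4 CPM in the KO libraries, a difference of 1.52 (SE 0.42). Cyp3a25 was at 37.7, 21.2, 9.99 and 83.9 CPM in the WT and 43.8, 125, 194 and 108 CPM in the KO libraries, a difference of 1.62 (SE 0.62). In both genes WT replicate 4 was again above KO replicate 1, the lowest KO library.

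Cyp2b10 was at 18.7, 13.9, 3.44 and 48.4 CPM in the WT and 51.3, 75.5, 232 and 54.7 CPM in the KO libraries, a log2 fold change of 2.29 (SE 0.74). The lowest KO and the highest WT library were close, and KO replicate 3 stood far above the other KO libraries. Cyp2c65, an intestinal P450 that oxidises arachidonic acid, was at 39.0, 35.4, 28.5 and 98.3 CPM in the WT and 63.4, 130.2, 248 and 134 CPM in the KO libraries, a difference of 1.52 (SE 0.47). Its neighbour Cyp2c66 was at 8.15, 5.18, 5.52 and 17.3 CPM in the WT and 6.34, 22.4, 75.7 and 20.7 CPM in the KO libraries, a difference of 1.78 (SE 0.68). Cyp2c66 in KO replicate 1 lay within the range of the WT libraries, as did Cyp2c65.

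Cyp2d26 was at 52.9, 28.8, 16.1 and 97.8 CPM in the WT and 89.3, 148, 277 and 177 CPM in the KO libraries, a difference of 1.82 (SE 0.53). Cyp2j6, of a subfamily that makes epoxides of arachidonic acid, was at 82.1, 70.7, 66.4 and 138 CPM in the WT and 107, 119.9, 176 and 159 CPM in the KO libraries, a difference of 0.65 (SE 0.25). Cyp4f14, which had the highest level of the 9 also per kilobase, was at 362, 198, 156 and 489 CPM in the WT and 453, 683, 741 and 932 CPM in the KO libraries, a difference of 1.22 (SE 0.36). In all 3 genes WT replicate 4 exceeded KO replicate 1.

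**Figure D1:**
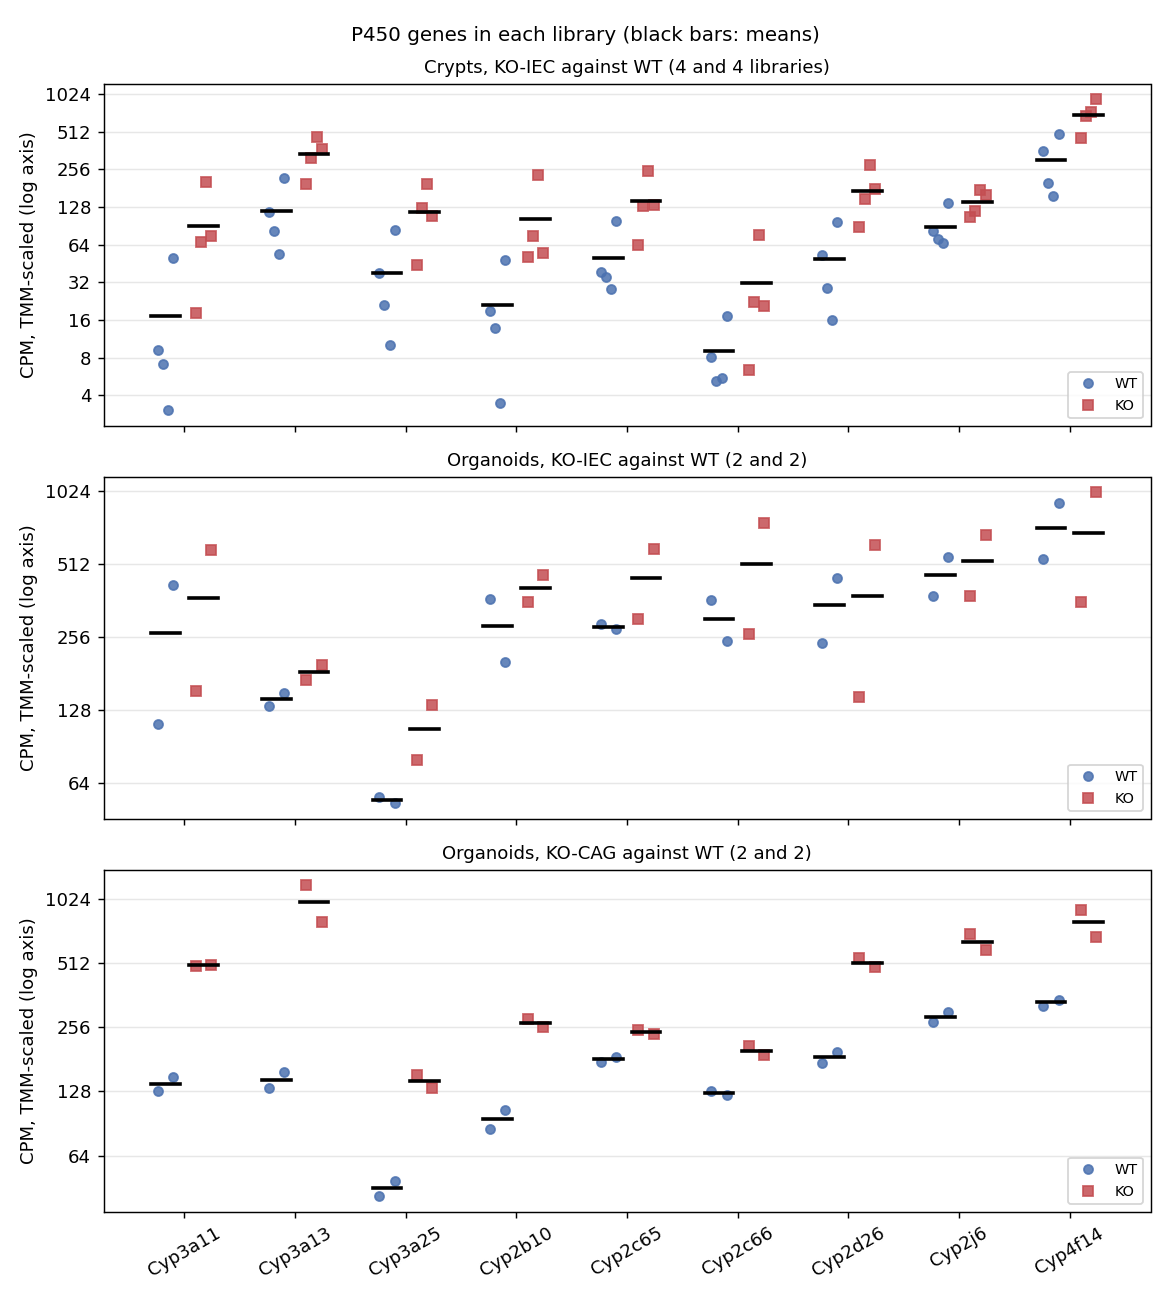
TMM-scaled CPM of the 9 P450 genes on a log axis in each library of the 3 experiments, with circles for WT, squares for KO and black bars for group means. In crypts the groups are spread widely and overlap for 8 of 9 genes, and in organoids they overlap for 6 of 9 in the KO-IEC and for none in the KO-CAG experiment.

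The same libraries stood at the ends for nearly all members. WT replicate 4 was the highest WT library for 9 of 9 genes and WT replicate 3 the lowest for 8. KO replicate 1 was the lowest KO library for 9 of 9 and KO replicate 3 the highest for 8. None of the 9 reached an adjusted p under 0.05 by edgeR (6.96% of all genes did, 4.3% higher and 2.66% lower), all 9 had an unadjusted p under 0.05 (31.9% of all genes), and DESeq2 called 5 (18.3% of all genes). Leaving out WT replicate 4 gave 8 calls, where 13.6% of all genes were called, and leaving out KO replicate 1 gave 5, where 17.96% were. Groups did not overlap, with KO higher, for 1 of 9 members and for 8.7% of all genes. Within the libraries of low mitochondrial rRNA, the KO mean exceeded WT replicate 1 by 0.67 (Cyp2j6) to 2.76 (Cyp3a11) on the log2 scale. Between KO replicate 4 and WT replicate 4 the differences were 0.18 (Cyp2b10) to 0.93 (Cyp4f14). All 9 were positive in both. Each of these comparisons rests on 1 WT library and the members were chosen by their KO against WT values, so nothing is read from these signs.

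Enterocyte markers moved with these genes. The 14 markers, among them Alpi and Slc5a1, summed to 4309 to 15600.4 CPM in WT and 14756 to 29448 CPM in KO-IEC crypts. All 14 had a higher KO mean (median log2 fold change 1.46), and 3 of them (Apob, Vil1 and Mttp) were called higher. The 9 P450 genes summed to 343 to 1242 CPM in WT and 1026 to 2614 CPM in KO, and all 8 libraries had the same rank in both sums. As a share of the enterocyte sum, the P450 sum was 7.31% to 7.96% in WT and 6.95% to 8.88% in KO, ranges that overlap. With an enterocyte score as a covariate, built from markers that all had a higher KO mean, the 9 differences ranged from -0.55 (Cyp3a11) to 0.21 (Cyp2b10). Of these, 4 were positive and 5 negative, with SE from 0.17 (Cyp4f14) to 0.85 (Cyp2c66). Because the marker sums nearly separate the genotypes, this fit cannot tell genotype from the score, and nothing is read from these differences. In bulk RNA, more cells of a type and more RNA per cell cannot be told apart.

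Other cell types were also measured beside the P450 genes. The 7 stem cell markers summed to 2077 to 3104 CPM in WT and 1378 to 2150.3 CPM in KO crypts, with Lgr5 and Ascl2 called lower. The 5 markers of proximal intestine summed to 291 to 699 CPM in WT and 894 to 2380.1 CPM in KO, mostly through lactase (Lct), and none was called. The 7 immune markers summed to 16.5 to 54.1 CPM in WT and 25.3 to 112 CPM in KO, with none called. The 5 Paneth cell markers summed to 6604 to 12546 CPM in WT and 1319 to 8781 CPM in KO, 4 of 5 with a negative log2 fold change and none called. Of the 5 liver markers, Alb and Serpina1a were at or below 0.184 CPM in every crypt library, Apoh at 0.402 to 1.93 CPM and Ttr at 3.29 to 5.73 CPM, while Cps1, a urea cycle enzyme also made by enterocytes, was at 1819 to 2821 CPM, and none was called. The part of proximal tissue, Paneth cells and immune cells in the P450 differences was not tested.

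In KO-IEC organoids, where the same driver had deleted Cul4b, the 9 genes showed smaller differences with wide errors. The log2 fold changes ranged from -0.08 (Cyp4f14) to 0.97 (Cyp3a25) with a median of 0.48, positive for 8 of 9, beside a median of -0.01 over all 13938 genes. These signs rested on single libraries. Without KO replicate 2, 4 of 9 were positive (median -0.21), with Cyp3a11 at -0.79, Cyp2c66 at -0.21, Cyp2d26 at -1.26, Cyp2j6 at -0.29 and Cyp4f14 at -1.02, and without WT replicate 1, 5 of 9 were. Without KO replicate 1 or WT replicate 2 all 9 were positive.

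Cyp3a25 was at 56.1 and 53.0 CPM in the WT and 79.6 and 135 CPM in the KO libraries, a log2 fold change of 0.97 (SE 0.28). Cyp3a13 was at 133 and 151 CPM in the WT and 170.0 and 196 CPM in the KO libraries, a difference of 0.37 (SE 0.17). Cyp2c65 was at 289.5 and 275 CPM in the WT and 303 and 591 CPM in the KO libraries, a difference of 0.66 (SE 0.34). In these 3 genes both KO libraries lay above both WT libraries, which 19.4% of all genes did as well.

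Cyp3a11 was at 112 and 418 CPM in the WT and 153 and 586 CPM in the KO libraries, a difference of 0.48 (SE 0.85). Replicate 2 was far above replicate 1 in both genotypes. Cyp2c66 was at 362 and 247 CPM in the WT and 263 and 756 CPM in the KO libraries, a difference of 0.74 (SE 0.53), and Cyp2b10 at 366 and 201 CPM in the WT and 357 and 461 CPM in the KO libraries, a difference of 0.53 (SE 0.33). In both genes 1 KO library was below the higher WT library.

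Cyp2d26 was at 242 and 449 CPM in the WT and 145 and 611 CPM in the KO libraries, a difference of 0.13 (SE 0.71). Cyp2j6 was at 378 and 546 CPM in the WT and 377 and 669.9 CPM in the KO libraries, a difference of 0.18 (SE 0.35), and Cyp4f14 at 534 and 908 CPM in the WT and 355 and 1010 CPM in the KO libraries, a difference of -0.08 (SE 0.55). For these 3 genes KO replicate 1 was the lowest and KO replicate 2 the highest of the 4 libraries.

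KO replicate 2 exceeded KO replicate 1 for 9 of 9 members. No member was called by edgeR (0.00717% of all genes were), 1 (Cyp3a25) had an unadjusted p under 0.05 (4.66% of all genes), and DESeq2 called 0 (0.187% of all genes). Leaving out KO replicate 1 gave 3 calls, where 15.8% of all genes were called, with the lone KO library assumed to vary as the WT pair does. The enterocyte markers summed to 9208 and 14476 CPM in WT and to 7773 and 19648 CPM in KO, in the same order over the 4 libraries as the P450 sum, which was 2471 and 3248 CPM in WT and 2203 and 5015 CPM in KO. As a share of the enterocyte sum it was 22.4% to 26.8% in WT and 25.5% to 28.3% in KO. The 7 stem cell markers summed to 3360.2 and 4749 CPM in WT and to 2209 and 593 CPM in KO, with none called. The 6 goblet cell markers summed to 1681 and 1975 CPM in WT and to 1734 and 6833 CPM in KO (6 of 6 positive, median log2 fold change 1.38), and the 5 Paneth cell markers to 1690.4 and 2697 CPM in WT and to 1250.3 and 1551 CPM in KO (5 of 5 negative), with none called in either list. The part of these cells in the P450 differences was not tested.

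In KO-CAG organoids all 9 genes were higher in both KO libraries than in both WT libraries, with log2 fold changes from 0.43 (Cyp2c65) to 2.77 (Cyp3a13) and a median of 1.47, beside a median of 0.00 over all 13598 genes. Replicates lay closer together here, with a common biological coefficient of variation of 0.0815 beside 0.231 in the crypts and 0.280 in the organoids of the KO-IEC experiment.

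Cyp3a13 was at 132 and 158 CPM in the WT and 1186 and 799 CPM in the KO libraries, a log2 fold change of 2.77 (SE 0.17). Cyp3a11 was at 129 and 149 CPM in the WT and 498 and 503 CPM in the KO libraries, a difference of 1.85 (SE 0.10), and Cyp3a25 at 41.4 and 48.8 CPM in the WT and 153 and 133 CPM in the KO libraries, a difference of 1.66 (SE 0.11). All 3 members of the Cyp3a subfamily thus had larger differences than the other 6 genes.

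Cyp2b10 was at 85.4 and 105 CPM in the WT and 280.0 and 257 CPM in the KO libraries, a difference of 1.5 (SE 0.11). Cyp2d26 was at 174 and 197 CPM in the WT and 538 and 488 CPM in the KO libraries, a difference of 1.47 (SE 0.10). For both genes the KO libraries differed from each other by far less than from WT. Cyp4f14 was at 324 and 345 CPM in the WT and 907 and 681 CPM in the KO libraries, a difference of 1.25 (SE 0.13), and Cyp2j6 at 272 and 301 CPM in the WT and 699 and 591 CPM in the KO libraries, a difference of 1.17 (SE 0.11). In these genes KO replicate 1 was the higher of the KO pair.

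The neighbours Cyp2c65 and Cyp2c66 had the smallest differences of the 9. Cyp2c65 was at 177 and 186 CPM in the WT and 249 and 239 CPM in the KO libraries, a difference of 0.43 (SE 0.08), and Cyp2c66 at 128 and 123 CPM in the WT and 208 and 189.9 CPM in the KO libraries, a difference of 0.66 (SE 0.08). In both, the lowest KO library was above the highest WT library. These are the genes whose upstream stretches are printed first above.

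**Figure D2:**
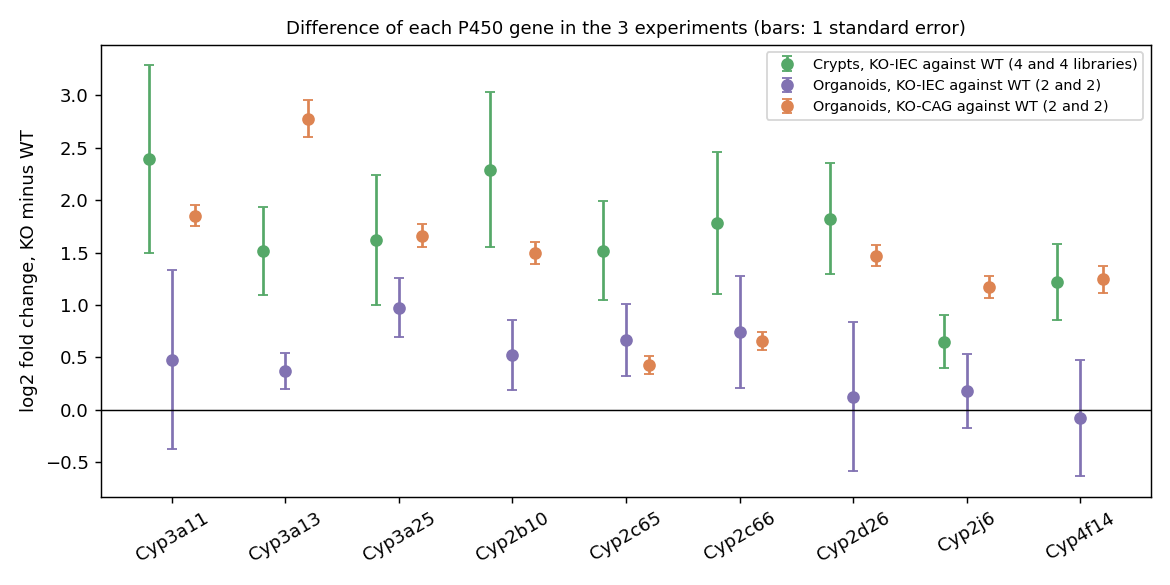
Log2 fold change of each P450 gene, KO minus WT, from the edgeR fit of each experiment, with bars of 1 standard error. In crypts the points lie between 0.65 and 2.39 with wide bars, in organoids between -0.08 and 0.97 for KO-IEC and between 0.43 and 2.77 with narrow bars for KO-CAG.

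edgeR called 9 of 9 members higher in KO-CAG organoids, where it called 31.5% of all genes, 18.1% higher and 13.4% lower. Groups did not overlap, with KO higher, for 9 of 9 members and for 35.5% of all genes. These members were chosen with this contrast known, so nothing is read from those shares. With the spread estimated over all 16 libraries, 1 member was called, where 3.06% of all genes were. The enterocyte markers summed to 7623 and 8071 CPM in WT and 20505 and 16160.3 CPM in KO, and 13 of 14 were called higher (median log2 fold change 1.26). The P450 sum was 1461 and 1613 CPM in WT and 4719 and 3880.0 CPM in KO, and the 4 libraries had the same rank in both sums. As a share of the enterocyte sum it was 19.2% and 19.99% in WT and 23.0% and 24.0% in KO, ranges that did not overlap. Of the P450 sum, Cyp3a13 alone made up 132 and 158 CPM in WT and 1186 and 799 CPM in KO. The share without Cyp3a13 was not computed. Because the 9 genes were chosen with this contrast known, nothing is read from the gap between these shares. Markers of Paneth cells (5 of 5), goblet cells (6 of 6) and enteroendocrine cells (4 of 4) were called higher too, of the 7 stem cell markers 3 were called lower, and the 3 liver markers tested (Alb, Ttr and Cps1) were called lower. The part of these cells in the P450 differences was not tested.

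**Figure D3:**
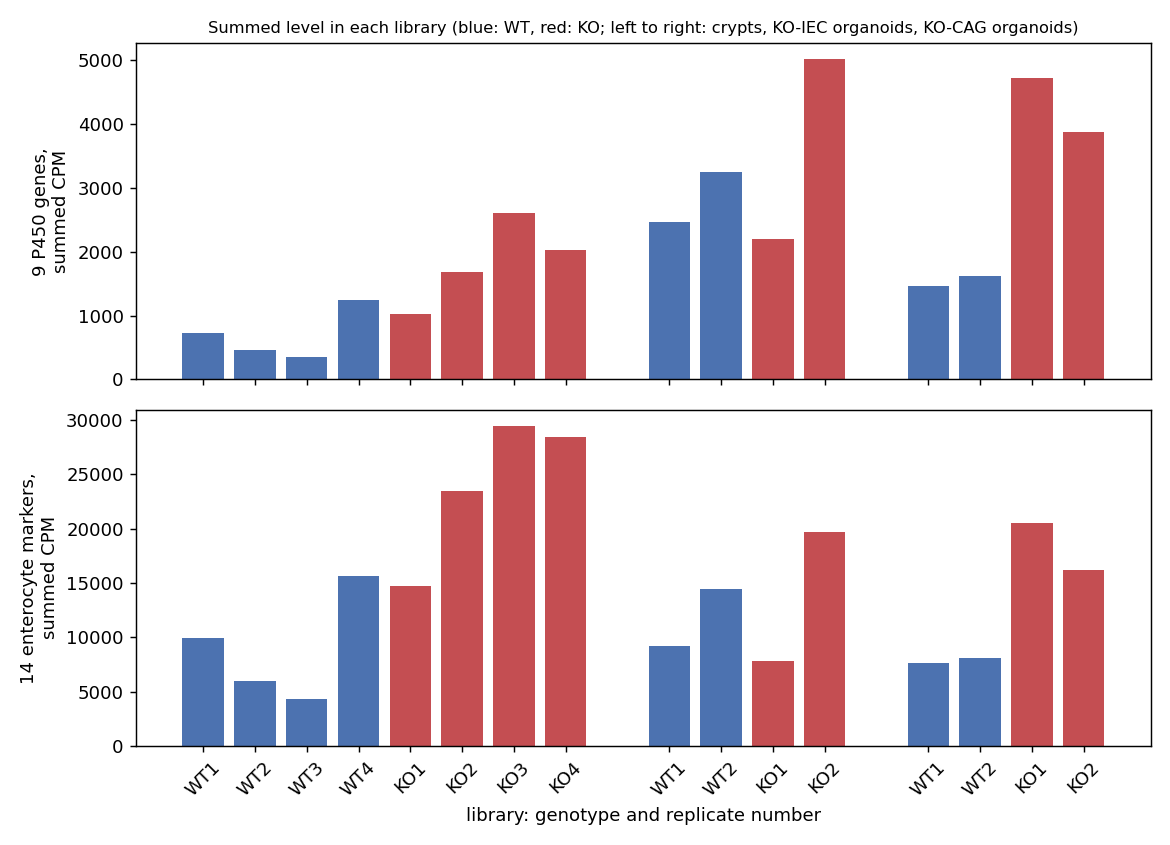
Summed CPM of the 9 P450 genes (upper panel) and of the 14 enterocyte markers (lower panel) in each library, with WT in blue and KO in red. Within each experiment the libraries have the same order in both panels, from WT replicate 3 to KO replicate 3 in the crypts.

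Differences of the 9 genes thus took a different order in each experiment. Cyp3a11 and Cyp2b10 had the largest values in crypts, Cyp3a25 in the organoids of KO-IEC and Cyp3a13 in those of KO-CAG. Cyp2c66 was at 1.78 in crypts, 0.74 in organoids of KO-IEC and 0.66 in those of KO-CAG, whereas Cyp2j6 was at 0.65, 0.18 and 1.17. Whether a gene's difference itself differed between experiments was not tested.

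Levels of different genes were compared as CPM per kilobase of gene length, in WT libraries. In crypts (mean ± SD, n = 4) Cyp4f14 was highest at 125 ± 63.9, followed by Cyp3a13 (39.9 ± 24.5), Cyp2d26, Cyp2c65, Cyp2j6, Cyp3a25, Cyp2b10, Cyp2c66 (4.64 ± 2.91) and Cyp3a11 (3.39 ± 4.27). The ranges of all 8 neighbours in this order overlapped. In WT organoids of the KO-IEC experiment (n = 2) the order ran from Cyp4f14 (299.7 ± 110.0) through Cyp2d26, Cyp2c66, Cyp2c65, Cyp2b10, Cyp2j6, Cyp3a11 and Cyp3a13 to Cyp3a25 (26.2 ± 1.06), with 6 of 8 neighbours overlapping. In those of the KO-CAG experiment (n = 2) it ran from Cyp4f14 (139 ± 6.36) through Cyp2d26, Cyp2c65, Cyp2j6, Cyp2c66, Cyp3a13, Cyp2b10 and Cyp3a11 to Cyp3a25 (21.7 ± 2.52), and Cyp3a13 and Cyp2b10 alone overlapped.

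Several members stood much lower in WT crypts than in WT organoids. Mean CPM (± SD) of Cyp2c66 was 9.03 ± 5.66 in WT crypts (n = 4) beside 304 ± 81.6 and 126 ± 3.41 in the WT organoids of the KO-IEC and KO-CAG experiments (n = 2 each). That of Cyp3a11 was 17.3 ± 21.8 beside 265 ± 217 and 139 ± 14.6, and that of Cyp2b10 was 21.1 ± 19.3 beside 283 ± 116 and 95.1 ± 13.6. Cyp3a13 was at 118 ± 72.4 beside 142 ± 12.8 and 145 ± 17.8. The tables were scaled separately and tissue cannot be told apart from experiment, so these levels were not tested against each other.

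Genes whose profile over the 16 libraries was most like that of each member were sought among 12142 genes, by the root-mean-square difference of log2 CPM after centring on the WT mean of each experiment. The closest profiles were those of Dusp5, a MAP kinase phosphatase, to Cyp2j6 (0.15), of Treh, the trehalase of the brush border, to Cyp2d26 (0.18) and of Cgref1 and Slc5a1, the intestinal sodium-glucose transporter, to Cyp4f14 (0.19 and 0.21). Cyp2c65 was closest to its relative Cyp2c68 (0.25) and to Iqgap2 (0.27). Cyp3a13 was closest to Gpt, an alanine aminotransferase, and Gda, guanine deaminase (0.32 and 0.34), Cyp3a25 to Slc25a45 and the retinol-binding protein gene Rbp2 (0.31 each), and Cyp2c66 to Adh1 and Alpi (0.37 each). Cyp3a11 and Cyp2b10 shared the peptidase gene Mme as closest profile at 0.51 and 0.46, the widest distances of the 9. Exoc3l4 followed for Cyp2d26 (0.20), Ormdl3 for Cyp2j6 (0.15), Sema6a for Cyp3a11 (0.55) and Rbp2 for Cyp2b10 (0.54). The libraries also differ in enterocyte markers, and Slc5a1 and Alpi belong to that list.

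The other 90 Cyp genes are what remained once the 9, chosen by their values, were taken out. In crypts 18 of them were tested, 15 with a positive difference (median 0.41), and edgeR called 2 higher and 1 lower, where it called 6.96% of all genes. Cyp1a1, the standard target of the aryl hydrocarbon receptor, was at 2.06, 0.66, 0.16 and 6.51 CPM in the WT and 57.6, 16.3, 21.6 and 17.5 CPM in the KO libraries (log2 fold change 3.56, SE 0.80, adjusted p = 0.045). All 4 KO libraries were above all WT libraries, with KO replicate 1 the highest. Cyp27a1, a sterol 27-hydroxylase of mitochondria, was at 14.6, 11.9, 9.59 and 16.6 CPM in the WT and 19.9, 26.3, 26.4 and 27.8 CPM in the KO libraries (log2 fold change 0.93, SE 0.18, adjusted p = 0.0401). Cyp39a1, an oxysterol hydroxylase, was lower, at 19.3, 20.3, 24.4 and 18.4 CPM in the WT and 13.6, 11.3, 12.4 and 12.4 CPM in the KO libraries (log2 fold change -0.73, SE 0.13, adjusted p = 0.0379). These 3 calls were close to the threshold. Leaving out WT replicate 1, 2 or 3 or KO replicate 2 or 3 gave 0 calls. At those settings at most 0.147% of all genes were called. Leaving out KO replicate 4 gave 1 (3.75% of all genes). Leaving out WT replicate 4 or KO replicate 1 gave 10 and 9, where 13.6% and 17.96% of all genes were called. With the enterocyte score as a covariate 0 were called, where 0.00745% of all genes were, so nothing is read from this 0.

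In KO-IEC organoids 29 other Cyp genes were tested, with a median of 0.15. Of these edgeR called 0 (0.00717% of all genes), as did DESeq2 (0.187%). By edgeR 1 had an unadjusted p under 0.05 (4.66% of all genes). Leaving out KO replicate 1 gave 7 calls (15.8% of all genes). Cyp1a1 was at 1.15 and 0 CPM in the WT and 6.63 and 0.338 CPM in the KO libraries (log2 fold change 2.55, SE 1.72), with overlapping groups. Cyp27a1 had a log2 fold change of -0.19 (SE 0.71). In KO-CAG organoids 30 other Cyp genes were tested, with a median of 0.55. Of these, 13 were called higher and 6 lower, where 31.5% of all genes were called. Cyp1a1 rose as in crypts, from 0.964 and 1.17 to 5.98 and 16.2 CPM (log2 fold change 3.41, SE 0.52, adjusted p = 0.000935), with only 8 and 9 counts in the WT libraries. Cyp27a1 rose from 3.28 ± 1.16 to 17.9 ± 4.37 CPM (SD, n = 2; log2 fold change 2.42, SE 0.28, adjusted p = 0.000195). Cyp2c29, of the same subfamily as Cyp2c65 and Cyp2c66, rose from 107 ± 25.6 to 568 ± 34.4 CPM (log2 fold change 2.41, SE 0.14, adjusted p = 5.83e-06), a larger difference than those of the Cyp2c members. In crypts, where it was not tested, it held between 0 and 27 counts a library.

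Cyp4b1 (log2 fold change 1.74, SE 0.15, adjusted p = 3.43e-05), Cyp2d34 (log2 fold change 1.95, SE 0.16, adjusted p = 2.54e-05) and Cyp2r1, a vitamin D 25-hydroxylase (log2 fold change 2.04, SE 0.45, adjusted p = 0.00665), also rose in KO-CAG organoids. Cyp2r1 averaged 0.63 CPM in WT and its call was lost without WT replicate 1. Cyp2c70, which makes the muricholic acids of mouse bile, fell from 4.94 and 3.89 to 0.417 and 0.962 CPM (log2 fold change -2.57, SE 0.43, adjusted p = 0.00146). Cyp2e1, the ethanol-oxidising P450, fell as well (log2 fold change -1.63, SE 0.44, adjusted p = 0.0189), and its call was lost without WT replicate 2 or KO replicate 1. Cyp2c genes therefore lay on both sides, with Cyp2c29 among those that rose and Cyp2c70 among those that fell.

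**Figure D4:**
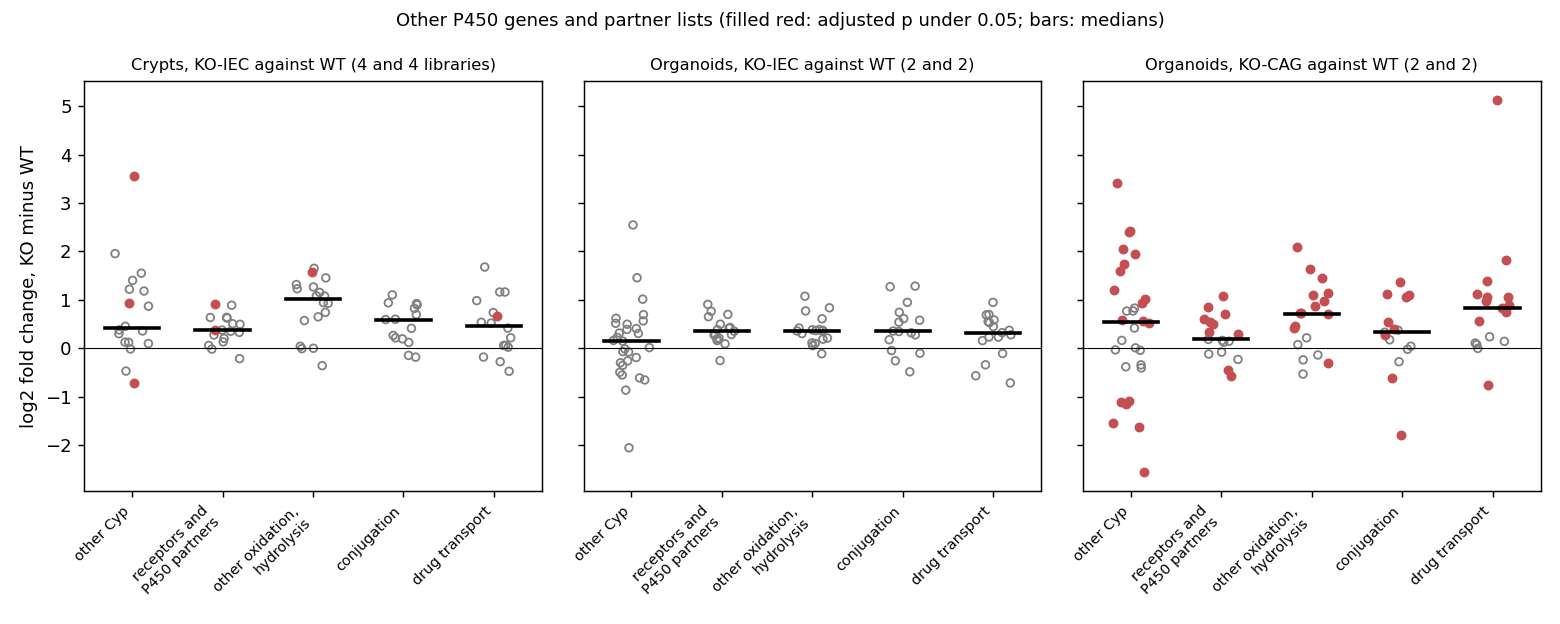
Log2 fold change, KO minus WT, of the other Cyp genes and of 4 lists of genes that act with P450 enzymes, in the 3 experiments. Filled red points passed an adjusted p under 0.05, open points did not, and bars are medians. Among the other Cyp genes and the 4 lists, 3 and 4 points are red in the left panel, 0 and 0 in the middle panel, and 19 and 44 in the right panel.

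A further 72 genes act with P450 enzymes as receptors, electron donors, further enzymes or transporters, in lists chosen with earlier results of these data known. In crypts 66 were tested and 4 were called higher (4.3% of all genes were) and 0 lower. The PXR gene Nr1i2 was at 94.8, 83.8, 90.3 and 96.1 CPM in the WT and 109, 131, 124 and 109.9 CPM in the KO libraries (log2 fold change 0.38, SE 0.10, adjusted p = 0.0493). All KO libraries were above all WT libraries, and the call was lost with library size alone in place of TMM. Nr1i3, which encodes CAR, was at 7.79, 3.87, 4.64 and 10.9 CPM in the WT and 4.33, 7.56, 18.2 and 12.4 CPM in the KO libraries (log2 fold change 0.64, SE 0.45, adjusted p = 0.354), with overlapping groups. Hnf4g, a nuclear receptor of the intestinal epithelium, rose from 174 ± 39.1 to 327 ± 74.5 CPM (SD, n = 4; log2 fold change 0.91, SE 0.20, adjusted p = 0.0438). Fmo5, a flavin-containing oxygenase, rose from 59.2 ± 29.7 to 176 ± 62.6 CPM (log2 fold change 1.57, SE 0.38, adjusted p = 0.046), and the carnitine transporter gene Slc22a5 from 36.7 ± 5.05 to 58.4 ± 8.93 CPM (log2 fold change 0.67, SE 0.14, adjusted p = 0.0407).

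By list, 2 of 17 receptors and partners, 1 of 18 genes of other oxidation and hydrolysis, 0 of 15 of conjugation and 1 of 16 of transport were called in crypts, all higher, with median log2 fold changes of 0.37, 1.01, 0.59 and 0.47. Of the 15 conjugation genes, 8 had an unadjusted p under 0.05, as had 31.9% of all genes. Over the 4 lists DESeq2 called 25, where it called 18.3% of all genes. Leaving out WT replicate 1, 2 or 3 or KO replicate 2 or 3 gave 0 calls. At those settings at most 0.147% of all genes were called. Leaving out KO replicate 4 gave 2 (3.75% of all genes). Leaving out WT replicate 4 or KO replicate 1 gave 25 and 24, where 13.6% and 17.96% of all genes were called. With the enterocyte score as a covariate 0 were called, where 0.00745% of all genes were, so nothing is read from this 0.

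In KO-IEC organoids 0 of 68 tested partner genes were called by edgeR (0.00717% of all genes) and 1 by DESeq2 (0.187%). By edgeR 8 had an unadjusted p under 0.05 (4.66% of all genes), and 58 were positive with a median of 0.36. Leaving out KO replicate 1 gave 28 calls, where 15.8% of all genes were called. Nr1i2 was at 67.4 and 67.8 CPM in the WT and 71.997 and 82.4 CPM in the KO libraries (log2 fold change 0.19, SE 0.16, adjusted p = 0.856), and Nr1i3 at 12.7 and 9.82 CPM in the WT and 10.2 and 17.2 CPM in the KO libraries (log2 fold change 0.28, SE 0.35, adjusted p = 0.868). Both KO libraries were above both WT libraries for Nr1i2, and the groups overlapped for Nr1i3.

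In KO-CAG organoids 38 of 67 tested partner genes were called higher and 6 lower (median log2 fold change 0.41), where 18.1% and 13.4% of all genes were. The lists were chosen with earlier results of these data known, so nothing is read from these shares. Of the 17 receptors and partners, 8 rose and 2 fell. Nr1i3 was at 10.2 and 10.8 CPM in the WT and 21.0 and 17.0 CPM in the KO libraries (log2 fold change 0.85, SE 0.18, adjusted p = 0.00517) and Nr1i2 at 74.9 and 68.9 CPM in the WT and 92.3 and 84.7 CPM in the KO libraries (log2 fold change 0.30, SE 0.09, adjusted p = 0.0311). The Nr1i2 call was lost without WT replicate 1, WT replicate 2 or KO replicate 1. Hnf4g (log2 fold change 0.53, SE 0.11, adjusted p = 0.00444) and the bile acid receptor gene Nr1h4 (log2 fold change 0.51, SE 0.13, adjusted p = 0.0166) rose, the latter not without WT replicate 1 or 2. The vitamin D receptor gene Vdr (log2 fold change -0.58, SE 0.09, adjusted p = 0.000833) and the glucocorticoid receptor gene Nr3c1 (log2 fold change -0.45, SE 0.08, adjusted p = 0.00215) fell.

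Among the proteins that pass electrons to P450 enzymes or carry heme, Cyb5r3, cytochrome b5 reductase (log2 fold change 1.09, SE 0.12, adjusted p = 0.000131), Cyb5a, cytochrome b5 (log2 fold change 0.70, SE 0.09, adjusted p = 0.000476), and Pgrmc1, a heme-binding partner of P450 enzymes (log2 fold change 0.60, SE 0.09, adjusted p = 0.00116), rose in KO-CAG organoids. Alas1, the first enzyme of heme synthesis, rose too (log2 fold change 0.34, SE 0.08, adjusted p = 0.0106), though not without WT replicate 1 or 2. Por, the reductase that passes electrons to P450 enzymes, was also tested and was called neither here nor in the other experiments.

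Of 18 genes of other oxidation and hydrolysis 12 rose and 1 fell, led by the carboxylesterase genes Ces2b (log2 fold change 2.08, SE 0.26, adjusted p = 0.000298) and Ces2c (log2 fold change 1.63, SE 0.16, adjusted p = 7.14e-05) and the epoxide hydrolase gene Ephx2 (log2 fold change 1.44, SE 0.13, adjusted p = 4.1e-05). Of 15 conjugation genes 7 rose and 2 fell. The glucuronosyltransferase gene Ugt2a3 (log2 fold change 1.36, SE 0.11, adjusted p = 2.18e-05) and the sulfotransferase gene Sult2b1 (log2 fold change 1.13, SE 0.18, adjusted p = 0.00123) rose, and Sult1c2 fell (log2 fold change -1.80, SE 0.29, adjusted p = 0.00117). Of 17 transport genes 11 rose and 1 fell. The drug efflux pump gene Abcb1b had 2 and 3 counts in the WT and 89 and 112 counts in the KO libraries (0.241 and 0.389 against 12.4 and 10.8 CPM, adjusted p = 1.66e-05). Slc47a1, an exporter of organic cations (log2 fold change 1.82, SE 0.20, adjusted p = 0.000158), and the prostaglandin transporter gene Slco2a1 (log2 fold change 1.40, SE 0.18, adjusted p = 0.000398) rose as well. In KO-IEC organoids Abcb1b was at 1.27 and 1.13 CPM in the WT and 1.45 and 1.55 CPM in the KO libraries, with the KO libraries above the WT libraries, and in crypts it stayed at or below 0.322 CPM.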

How the data were processed

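RNA-seq was measured in 16 mouse libraries (4 and 4 crypt libraries, and 2 and 2 organoid libraries in each of 2 experiments). Deposited were 3 tables, 1 for each experiment, of unnormalised read counts that the authors made. The submitters' processing notes name HISAT2 2.0.5 and featureCounts 1.5.0-p3. The annotation and any use of strand were not given in the sources used here. The position of Cyp2d26 differs slightly between the tables.

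Each experiment was fitted alone in edgeR 4.0.16 (R 4.3.3) with filterByExpr, TMM scaling and the quasi-likelihood test, without a block, and p-values were adjusted over all genes tested by Benjamini-Hochberg. A gene was called at an adjusted p under 0.05. Fold changes are log2 values from this fit. A prior count of 2 was added only to the log2 CPM of single libraries. The steps were tested on simulated data. The study's methods used DESeq2, run here (1.42.0) as an alternative, together with other scalings, filters, covariates, a replicate block and leaving out each library. With 3 counts as the floor, the depth allows a limit of 0.178 to 0.408 CPM a library, which covers counting error only.

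The members and gene lists were chosen with earlier results of these data known. Named are the members, Cul4b and up to 8 called other Cyp genes with the largest absolute log2 fold change per experiment. Also named are every called receptor or partner with Nr1i2, Nr1i3 and Por, up to 3 called genes of each other list per experiment, and the 2 genes most like each member. The enterocyte score is the mean z score of the 14 markers, and mitochondrial rRNA classes were cut at 100 and 2000 CPM. Sequences are from RefSeq (GRCm38.p6).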

Additional observations from a re-analysis of the deposited data

Results flagged for a closer look

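In groups of 4 crypt libraries, the gap of the highest or lowest library to its nearest neighbour exceeded Dixon's 95% critical value in 5 of 34 groups checked (17 genes in 2 genotypes). The rate of about 1 in 20 by chance holds for independent groups of normally distributed values. Here the genes share the same libraries and CPM were not log-scaled, so 5 of 34 is not read as an excess. Cyp3a11 in WT replicate 4 was at 49.7 CPM, with the other WT libraries at 3.04 to 9.13. Cyp2c65 in WT replicate 4 was at 98.3 CPM, with the others at 28.5 to 39.0. Cyp2b10 in KO replicate 3 was at 232.2 CPM, with the others at 51.3 to 75.5. Cyp1a1 in KO replicate 1 was at 57.6 CPM, with the others at 16.3 to 21.6. Slc22a5 in WT replicate 4 was at 44.2 CPM, with the others at 33.7 to 34.5.

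For 2 receptor genes every KO library moved against the direction of another experiment, and the difference was not tested. Nr3c1 had log2 fold changes of 0.33 in crypts and, in organoids, 0.50 for KO-IEC and -0.45 for KO-CAG. Vdr had 0.65 in KO-IEC and -0.58 in KO-CAG organoids.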

How the results depend on the processing

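Counts of calls depended on the processing in all 3 experiments. In crypts the settings of the report called 0 members, 3 other Cyp genes and 4 partner genes (6.96% of all genes). Without the filter on low counts these became 8, 8 and 20 (4.91% of all genes), and by DESeq2 5, 8 and 25 (18.3%). With all 16 libraries fitted together 4 members and 12 partner genes were called (10.6% of all genes). With a 2-fold minimum, for which the share of all genes was not counted, they were 1 other Cyp gene and 1 partner gene. With the mitochondrial rRNA class as a covariate they were 0 and 0 (0.0149% of all genes). With the enterocyte score as a covariate they were again 0 and 0 (0.00745% of all genes). Nothing is read from these counts, because almost no gene was called at either setting. In KO-IEC organoids 0, 0 and 0 were called by the settings of the report (0.00717% of all genes). These became 1, 3 and 4 without the filter (0.917% of all genes), and 1 partner gene by DESeq2 (0.187%). In KO-CAG organoids, from 9, 19 and 44 (31.5% of all genes), they became 1, 5 and 1 with all 16 libraries fitted together (3.06%). With the 2-fold minimum 17 partner genes were called, and the share of all genes was not counted. The cause was not tested. Leaving out each library in turn gave 0 to 8 members, 0 to 10 other Cyp genes and 0 to 25 partner genes in crypts, 0 to 3, 0 to 7 and 0 to 28 in KO-IEC organoids, and 8 to 9, 16 to 19 and 34 to 48 in KO-CAG organoids, where a library left alone in its group is assumed to vary like the others. Members changed sign in KO-IEC organoids without KO replicate 2 (4 of 9 positive) or WT replicate 1 (5 of 9) and in crypts with the enterocyte covariate (4 of 9), and with the replicate block 7 of 9 were positive in KO-IEC organoids. Nr1i3 changed sign, to -0.85 in crypts with the enterocyte covariate and to -0.15 in KO-IEC organoids without KO replicate 2, where the range over left-out libraries ended at 0.61 without KO replicate 1.

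Replicate numbers were not taken as pairing: same-numbered crypt libraries deviated together with r of -0.04, 0.19, -0.40 and 0.43, and not every library correlated best with its own number. In organoids this r was 0.34 for KO-IEC and 0.07 for KO-CAG. Mitochondrial rRNA in the KO-IEC experiment was 1379 (WT) and 1189 (KO) CPM in replicate 1 and 2167 (WT) and 2674 (KO) CPM in replicate 2. A batch shared by replicate number was not tested. With a replicate block, 0 members, 0 other Cyp genes and 0 partner genes were called in crypts, and over all genes 4 were called, against 934 without it.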
